A study of Mus musculus with 24 samples.

Results

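The comparison described here is the difference of 2 tumour effects in mouse liver, the effect in Mdr2-/- mice minus the effect in wild-type mice, tested gene by gene. All 24 libraries of the series enter it, and 17216 of the 49315 genes in the count table had enough counts to be tested. Tumour-bearing livers had received AKT and YAP1 by transposon-based integration, which gave cholangiocarcinoma, and control livers had received an empty transduction. The 4 groups of 6 libraries were wild-type controls (labelled Ctrl.Wild-type and called healthy in the tissue label), tumour-bearing wild-type livers (CCA.Wild-type), Mdr2-/- controls (Ctrl.Mdr2-/-) and tumour-bearing Mdr2-/- livers (CCA.Mdr2-/-). The Mdr2-/- allele is shared by the treated and the control livers of that genotype, and the samples are pieces of tumour-bearing tissue, not sorted tumour cells. The sources used here do not give age, sex, the promoter of the transposon or the time of sampling, and nothing there says that each library came from a mouse of its own, so p-values measure only the spread between these samples. The design text names the tumour comparison within each genotype. The difference of the 2 asks in which genes the tumour effect depended on the genotype.

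Mdr2, the product of Abcb4, moves phosphatidylcholine from the hepatocyte into bile, where it shields the bile ducts from bile salts. Mice that lack it develop bile duct injury, duct proliferation and fibrosis without any oncogene. AKT and YAP1 together turn hepatocytes towards a duct-like tumour. An interaction can therefore come about in different ways: the control livers of the genotypes can differ while the tumour-bearing livers are alike, or the tumour-bearing livers can differ from like controls, so most genes are given here with their levels in all 4 groups. Below, CPM is the usual depth-scaled count (cpm of edgeR, with TMM factors), log2 differences are from 1 edgeR model of all 24 libraries, "called" means a Benjamini-Hochberg adjusted p under 0.05 over all genes tested, and a positive interaction means that the tumour effect was higher in Mdr2-/- than in wild type. CPM is not corrected for gene length, so levels are compared between groups of 1 gene and not between genes.

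Abcb4 followed the labels in every library. It ran at 244 to 377 CPM (median 274) in wild-type controls and 165 to 361 CPM (median 215) in tumour-bearing wild-type livers, against 23.8 to 41.6 CPM (median 31.3) and 21.7 to 59.3 CPM (median 25.9) in the 2 Mdr2-/- groups, and its interaction was 0.22 ± 0.30 (SE, adjusted p = 0.622). Akt1, 1 of the 2 transduced genes, ran at 21.2 to 47.5 CPM (median 34.8) in wild-type controls, 58.5 to 162 CPM (median 86) in tumour-bearing wild-type livers, 49 to 64.4 CPM (median 52.2) in Mdr2-/- controls and 44.9 to 134 CPM (median 116) in tumour-bearing Mdr2-/- livers, with an interaction of -0.61 ± 0.35 (SE, adjusted p = 0.196). The library labelled tumour-bearing Mdr2-/- replicate 1, at 44.9 CPM, was below all 6 Mdr2-/- controls, while the other 5 of its group were above them, so in that library Akt1 goes against the label. Yap1 ran at 48.6 to 78.4 CPM (median 52.9), 40.2 to 77.5 CPM (median 48), 59.1 to 86.3 CPM (median 72.4) and 40.7 to 58.6 CPM (median 52.5) in the same order, with an interaction of -0.39 ± 0.21 (SE, adjusted p = 0.174), and was not above the controls in either tumour-bearing group. None of these 3 was called, and whether reads of the transposon's own copies were counted is not given in the sources used here. Without the library labelled tumour-bearing Mdr2-/- replicate 1 the interaction was called for 3554 genes, of which 70.1% were control-led and 212 tumour-led by the placing described below, and no gene named below as called lost its call.

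Libraries held 20976459 to 30288385 counts. Wild-type controls had TMM factors of 0.7749 to 0.8647, below every other library, and the factors reached 1.388 in tumour-bearing Mdr2-/- livers. Nuclear non-coding RNAs took a median of 4.41% of counts in wild-type controls, 5.94% in tumour-bearing wild-type livers, 3.17% in Mdr2-/- controls and 6.05% in tumour-bearing Mdr2-/- livers, and 1 of them, Malat1, was itself called with an interaction of 1.64 ± 0.35 (SE, adjusted p = 0.00192). The summed level of 7 hepatocyte markers had medians of 121000, 73400, 86200 and 52500 CPM in the same order of groups, and that of 6 cholangiocyte markers 19.1, 38.9, 44.4 and 141 CPM. The adipocyte and gut markers were too low to be tested. The numbers in the sample titles did not overlap between wild-type controls and tumour-bearing wild-type livers, so anything tied to them cannot be told apart from the wild-type tumour effect. They overlapped between the Mdr2-/- groups. In bulk tissue, fewer cells of a type and less RNA per cell cannot be told apart.

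The interaction was called for 4355 genes, 25.3% of all tested. It was positive for 2042 genes (11.9%) and negative for 2313 (13.4%), and 1415 and 1187 of these were at least 2-fold. The counts given below for gene lists are to be read beside these 2 shares. With upper-quartile scaling, which moved the median of all genes by 0.10, the split was 2418 positive to 1784 negative. On log2(TPM + 0.1), where the median moved by -0.18, it was 1314 to 2349. The spread in the 4 groups was alike, with a median SD of log2 CPM over genes of 0.287 in wild-type controls, 0.319 in tumour-bearing wild-type livers, 0.261 in Mdr2-/- controls and 0.271 in tumour-bearing Mdr2-/- livers.

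The genotypes lay further apart in control than in tumour-bearing livers. Over all tested genes the median size of the genotype difference was 0.517 on the log2 scale in controls and 0.242 in tumour-bearing livers. Genotype was called for 8690 genes in controls (50.5%) and for 1917 in tumour-bearing livers (11.1%). Among the 2042 genes with a positive interaction the median genotype difference was -1.14 in controls and 0.15 in tumour-bearing livers. Among the 2313 with a negative one it was 0.92 and -0.07. To describe where each interaction lay, the genotype difference in controls, with its sign turned, was divided by the interaction. A gene was named control-led where this share was at least 0.75, tumour-led where it was at most 0.25, and mixed in between. By this description 3012 called genes (69.2%) were control-led, 1157 (26.6%) mixed and 186 (4.27%) tumour-led. The median share was 0.895, and 557 genes lay between 0.7 and 0.8 and 82 between 0.2 and 0.3, close to the limits. The shares are made from the same libraries as the interaction and carry no test of their own. Leaving out 1 library at a time gave 63.5 to 75.6% control-led genes. The tumour-led count fell to 96 without tumour-bearing Mdr2-/- replicate 6.

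**Figure D1:**
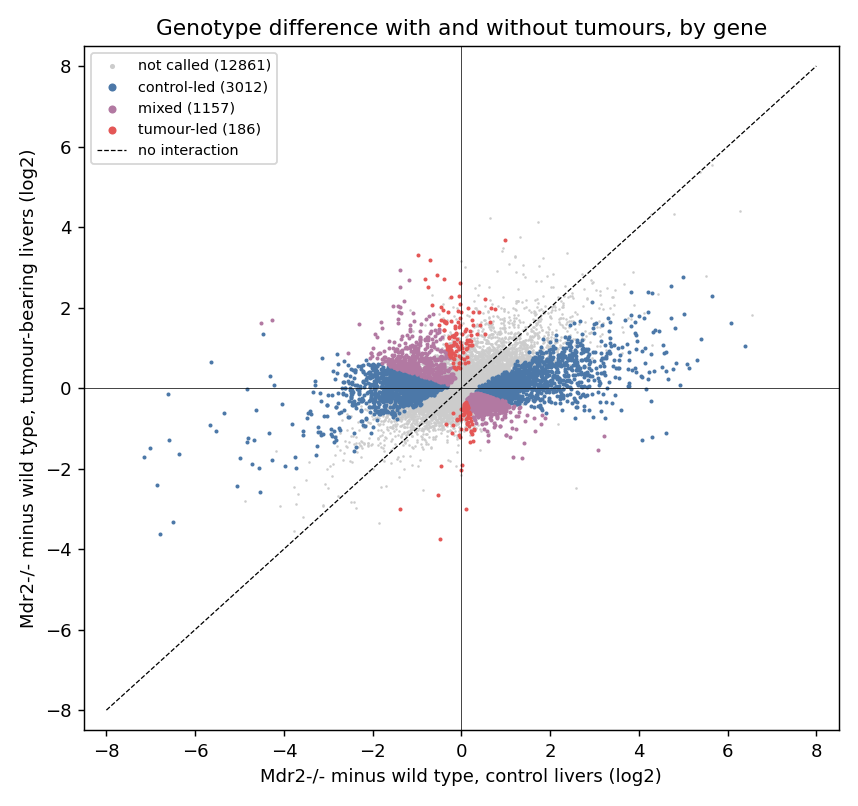
Each point is 1 of the 17216 tested genes, with the log2 genotype difference (Mdr2-/- minus wild type) in control livers on the x axis and in tumour-bearing livers on the y axis. Grey genes were not called, and the 3012 control-led genes (blue) lie along the horizontal axis while the 186 tumour-led genes (red) lie along the vertical one.

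Comparing each group's mean log2 CPM with the median of the other 3, wild-type controls were farthest out for 2192 called genes (50.3%), Mdr2-/- controls for 1649 (37.9%), tumour-bearing Mdr2-/- livers for 401 (9.21%) and tumour-bearing wild-type livers for 113 (2.59%). Over all tested genes the shares were 38.1%, 33.0%, 20.9% and 7.98% in that order, so the share of Mdr2-/- controls lay near that of all genes. All 6 wild-type controls lay below the other 18 libraries for 529 genes with a negative interaction (22.9% of these), against 734 (4.26%) of all tested genes. They lay above them for 172 genes with a positive one (8.42%), against 326 (1.89%) of all tested. For 36 genes with a positive interaction (1.76%), all 6 tumour-bearing Mdr2-/- livers lay above the other 18 libraries, as they did for 96 (0.558%) of all tested. A gene low only in wild-type controls has a negative interaction by the sign of the contrast, and one high only there a positive one. The called genes are also among all tested, so these counts are a description and no separate support. Mdr2-/- controls lay above the other 18 libraries for 0.720% of all tested genes and below them for 0.337%, and tumour-bearing wild-type livers for 0.105% and 0.00581%. The tumour effects themselves were called in wild type only for 609 positive and 983 negative interactions, in Mdr2-/- only for 857 and 819, and in opposite directions for 235 and 243. Tumour effects were called for 28.4% of all genes in wild type and 34.8% in Mdr2-/-.

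Genes of DNA replication had the largest share of negative interactions among the 59 gene lists. Of 26 licensing and fork genes, which load and drive the replicative helicase and copy the DNA, 20 were called with a negative interaction (13.4% of all genes) and none with a positive one, with a median of -1.62 over the 26 members beside -0.04 over all genes. The median genotype difference was 1.60 in controls and -0.03 in tumour-bearing livers. Their tumour effect was a called rise for 24 of 26 in wild type, beside 16.9% of all genes, and a called fall for 13 of 26 in Mdr2-/-, beside 17.0% of all genes. Of the 20 called interactions 13 had tumour effects called in opposite directions. Leaving out 1 library at a time called 18 to 21 of them.

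Uhrf1, which guides DNA methylation to newly copied strands, ran at 0.775 to 1.65 CPM (median 1) in wild-type controls and 5.19 to 14.9 CPM (median 5.88) in tumour-bearing wild-type livers. In Mdr2-/- it ran at 5.57 to 30.1 CPM (median 11.4) in controls and 7.51 to 9.49 CPM (median 8.03) in tumour-bearing livers. All wild-type controls were below every other library, and the other 3 groups overlapped. Its interaction was -3.71 ± 0.46 (SE, adjusted p = 7.53e-06), with genotype differences of 3.76 in control livers (adjusted p = 1.09e-08) and 0.05 between the tumour-bearing ones (adjusted p = 0.947). Mcm6, a subunit of the replicative helicase, was at 1.64 to 4.98 CPM (median 2.12) and 9.32 to 23.9 CPM (median 14) in wild-type control and tumour-bearing livers, and at 16.5 to 41.8 CPM (median 30.9) and 9.05 to 17.9 CPM (median 13.2) in the Mdr2-/- groups. Wild-type controls were again below every other library, and Mdr2-/- controls had the highest median but overlapped with both tumour-bearing groups. The interaction was -3.62 ± 0.39 (SE, adjusted p = 1.29e-06). The tumour effect was 2.47 in wild type (adjusted p = 7.63e-07) and -1.15 in Mdr2-/- (adjusted p = 0.00244). Mcm5, another helicase subunit, had levels of 2.35 to 5.43 CPM (median 2.84), 9.69 to 22.3 CPM (median 12.8), 17.2 to 32.9 CPM (median 24.4) and 10.5 to 19.7 CPM (median 12.2) in the 4 groups in that order, and an interaction of -3.00 ± 0.34 (SE, adjusted p = 1.98e-06), and its wild-type controls were below every other library too.

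The promoters of these 3 genes are shown because 20 of the 26 listed genes were called in 1 direction. RefSeq promoters on GRCm38.p6, 250 bases before to 50 after the gene's start, were found for 23 of the 26 genes (28 promoters). They were searched on both strands for TTTCCCGC or TTTGGCGC, letters bound by E2F factors, and for CCAAT, the letters of NF-Y, with no overlap between the motifs required or barred. Sequences run 5′ to 3′ on the gene's strand, with every E2F or CCAAT match in either orientation in capitals. Mcm6 is at chr1:128359656-128359955, minus strand, Mcm5 at chr8:75109259-75109558, plus strand and the first of 2 Uhrf1 promoters at chr17:56303087-56303386, plus strand.
Mcm6: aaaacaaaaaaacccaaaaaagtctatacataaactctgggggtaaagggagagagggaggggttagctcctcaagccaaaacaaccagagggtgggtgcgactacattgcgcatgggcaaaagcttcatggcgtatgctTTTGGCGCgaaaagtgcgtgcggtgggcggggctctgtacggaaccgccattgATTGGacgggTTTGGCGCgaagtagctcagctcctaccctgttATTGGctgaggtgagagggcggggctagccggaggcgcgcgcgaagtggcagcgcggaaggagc
Mcm5: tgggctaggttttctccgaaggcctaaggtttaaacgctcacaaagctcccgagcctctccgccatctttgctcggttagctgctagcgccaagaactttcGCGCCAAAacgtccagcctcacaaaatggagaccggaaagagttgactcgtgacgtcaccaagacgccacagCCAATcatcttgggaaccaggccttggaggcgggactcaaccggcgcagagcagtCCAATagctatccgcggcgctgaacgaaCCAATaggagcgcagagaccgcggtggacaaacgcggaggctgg
Uhrf1: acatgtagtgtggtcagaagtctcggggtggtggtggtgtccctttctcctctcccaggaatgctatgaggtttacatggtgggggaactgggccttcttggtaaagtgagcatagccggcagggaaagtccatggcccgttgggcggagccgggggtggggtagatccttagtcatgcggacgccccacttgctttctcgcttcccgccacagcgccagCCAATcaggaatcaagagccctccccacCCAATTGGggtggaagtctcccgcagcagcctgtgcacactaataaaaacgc
Mcm6 held 2 E2F and 2 CCAAT matches, Mcm5 1 and 3, and Uhrf1 0 and 3. Over the list, 8 of 28 promoters (28.6%) held an E2F match and 18 (64.3%) a CCAAT match, beside 1.56% and 37.4% of the 32851 promoters in the table. The CCAAT share was not particular to this list. Of 29 promoters of the glutathione transferase genes described below, 20 (69.0%) held a CCAAT match and 0 an E2F match. The CHR element TTTGAA was in 3 (10.7%), beside 17.9% of all. A match is a description of letters, and the binding of any factor was not measured.

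**Figure D2:**
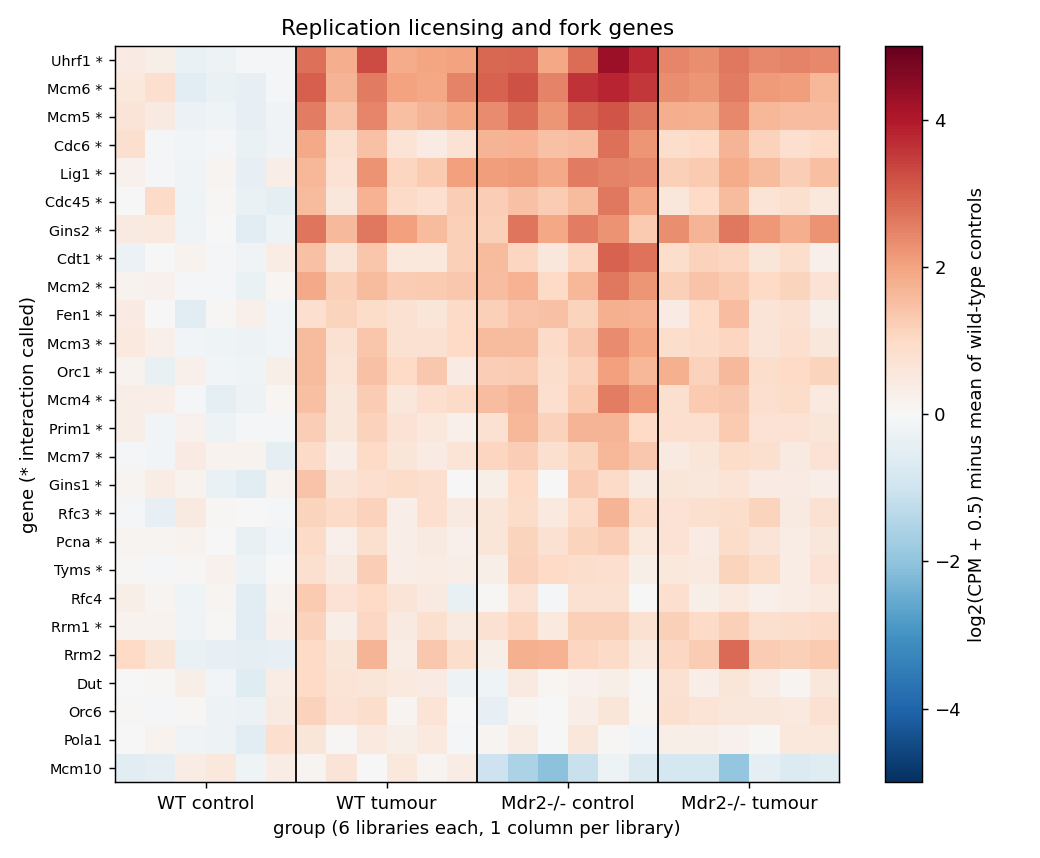
Rows are the 26 replication genes and columns the 24 libraries, coloured by log2(CPM + 0.5) minus the mean of the wild-type controls, and stars mark the 20 called interactions. The colour is deepest in Mdr2-/- controls for most of the upper rows, while both tumour-bearing groups are of a like, paler red.

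Of 20 mitotic genes, which build the spindle and divide the chromosomes, 6 were called with a negative interaction and 0 with a positive one, with a median of -1.07. That count was 2 without tumour-bearing wild-type replicate 3, 10 without tumour-bearing Mdr2-/- replicate 3 and 1 by limma voom. Cdk1, the kinase that starts mitosis, ran at 0.947 to 1.86 CPM (median 1.23) in wild-type controls, 3.23 to 10.1 CPM (median 3.85) in tumour-bearing wild-type livers, 4.8 to 8.16 CPM (median 7.34) in Mdr2-/- controls and 4.49 to 14.5 CPM (median 6.69) in tumour-bearing Mdr2-/- livers. Wild-type controls were below all others and the other groups overlapped. Its interaction was -1.71 ± 0.41 (SE, adjusted p = 0.00469), and its tumour effect 1.91 in wild type (adjusted p = 5.26e-05) and 0.20 in Mdr2-/- (adjusted p = 0.587). Among upstream cell cycle genes, E2f1, an activator of replication genes, had medians of 2.29, 8.43, 7.99 and 5.92 CPM in wild-type control, wild-type tumour-bearing, Mdr2-/- control and Mdr2-/- tumour-bearing livers, and an interaction of -2.28 ± 0.20 (SE, adjusted p = 6.74e-08). Its genotype difference was 1.79 in control livers (adjusted p = 1.31e-09) and -0.49 between the tumour-bearing ones (adjusted p = 0.0226). E2f8, a repressor of the same family, went the other way, with medians of 26.7, 13.2, 8.08 and 8.99 CPM in that order and 1.27 ± 0.30 (SE, adjusted p = 0.00406). Ccnd1, cyclin D1, differed in another way: it ran at 80.9 to 155 CPM (median 97) in wild-type controls and 84.6 to 159 CPM (median 113) with tumours, at 182 to 444 CPM (median 313) in Mdr2-/- controls and 94.5 to 175 CPM (median 124) with tumours. Here Mdr2-/- controls were above every other library, and the tumour effect was 0.13 in wild type (adjusted p = 0.686) and -1.30 in Mdr2-/- (adjusted p = 0.00011).

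Senescence genes and their secreted partners had 7 of 12 tested members with a negative interaction and 0 with a positive one, at a median of -1.95. The lowest value in this list, -3.81, was also the lowest of the matrix crosslinking and recruited macrophage lists, and lists can share members. Cdkn1a, which encodes the cell cycle inhibitor p21, ran at 1.36 to 10.5 CPM (median 6.42) in wild-type controls. The other groups lay above and overlapped, at 29.5 to 59 CPM (median 38.7) in tumour-bearing wild-type livers, 16.8 to 64 CPM (median 29) in Mdr2-/- controls and 18.4 to 47.2 CPM (median 42.2) in tumour-bearing Mdr2-/- livers. Its interaction was -2.57 ± 0.52 (SE, adjusted p = 0.00136). Immediate early genes, which respond within minutes to growth factors and handling, had 12 of 16 members with a negative interaction and 0 with a positive one, at a median of -1.44. Their count was 7 without tumour-bearing wild-type replicate 6, and 6 when nuclear non-coding RNA share entered as a covariate. Btg2, an antiproliferative member, had medians of 6.26, 19.4, 43.2 and 19.2 CPM and an interaction of -2.33 ± 0.39 (SE, adjusted p = 0.000285), with Mdr2-/- controls highest and overlapping with tumour-bearing wild-type livers.

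**Figure D3:**
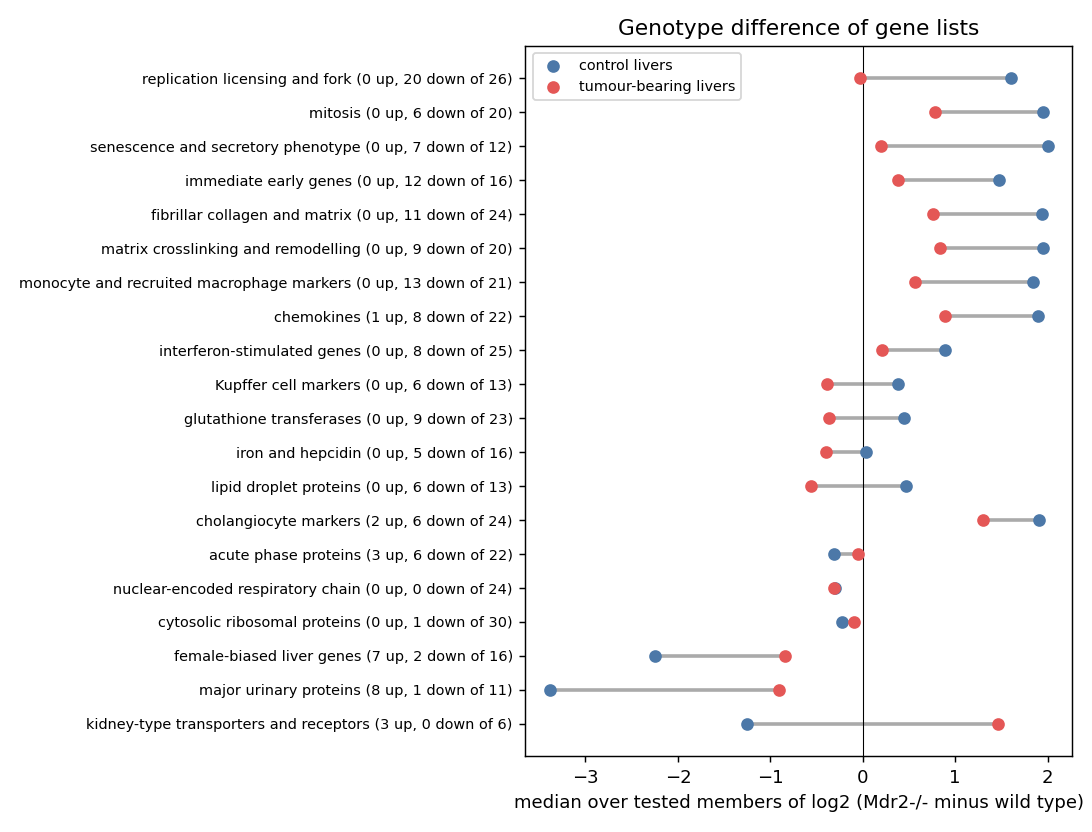
For 20 gene lists, dots give the median log2 genotype difference (Mdr2-/- minus wild type) over the tested members in control livers (blue) and in tumour-bearing livers (red), and labels give the members called for the interaction. In the first 9 lists the control value lies at 0.89 or more and the tumour-bearing value nearer to 0, and in the kidney-type list the value is -1.25 in controls and 1.46 in tumour-bearing livers.

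Matrix genes followed the control side. Of 24 genes of fibrillar collagen and matrix 11 were called with a negative interaction and 0 with a positive one, at a median of -0.84, and all 11 were control-led. Genotype was a called rise for 22 of 24 in controls, beside 26.2% of all genes, and for 13 of 24 in tumour-bearing livers, beside 7.13%. Col1a1, a chain of collagen I, ran at 5.42 to 9.64 CPM (median 7.53) in wild-type controls and 20.7 to 108 CPM (median 34.5) in tumour-bearing wild-type livers, against 38.7 to 137 CPM (median 80.4) and 50.8 to 121 CPM (median 72.9) in the Mdr2-/- groups. Wild-type controls were below all other libraries and the other 3 groups overlapped. Its interaction was -2.87 ± 0.50 (SE, adjusted p = 0.00041), and its tumour effect 2.72 in wild type (adjusted p = 8.24e-06) and -0.15 in Mdr2-/- (adjusted p = 0.758). Among genes that crosslink and remodel matrix, 9 of 20 were called with a negative interaction and 0 with a positive one, but 3 on log2(TPM + 1). Tgfb1, the ligand of the fibrogenic pathway, had medians of 9.26, 14, 19.6 and 13.7 CPM in wild-type control, wild-type tumour-bearing, Mdr2-/- control and Mdr2-/- tumour-bearing livers and an interaction of -1.20 ± 0.19 (SE, adjusted p = 0.00013). Its receptor chain Tgfbr2 had 27.3, 41.9, 85 and 46.8 CPM and -1.47 ± 0.25 (SE, adjusted p = 0.000319), and the induced matrix protein Tgfbi 29.3, 46, 94 and 62.9 CPM and -1.37 ± 0.23 (SE, adjusted p = 0.000238). Of the 17 genes of TGF beta signalling 3 were positive (17.6%) and 3 negative (17.6%), near the 11.9% and 13.4% of all genes. Itgb8 had the largest positive interaction, 1.19 (adjusted p = 0.0446), and lost its call in 22 of 38 alternatives. The negative count was 6 without tumour-bearing wild-type replicate 2 and 5 without replicate 4 of that group. The positive count was 1 without wild-type control replicate 1 or 6 or Mdr2-/- control replicate 5, 0 on total library size, on log2(TPM + 0.1) or with the nuclear RNA covariate, and 1 without a filter or without the 2 libraries that stood apart from their groups (tumour-bearing wild-type replicate 6 and the library labelled tumour-bearing Mdr2-/- replicate 1). For Tgfb1, Tgfbr2 and Tgfbi the tumour effect was a called rise in wild type and a called fall in Mdr2-/-. The stellate cell genes were less uniform, with 5 of 17 called with a negative (29.4%) and 2 with a positive interaction (11.8%, as for all genes). Cygb, a globin of stellate cells, had medians of 5.41, 11.4, 32 and 25.6 CPM and -1.63 ± 0.27 (SE, adjusted p = 0.000239), while Rgs5, a pericyte gene, had 236, 257, 172 and 395 CPM and 1.06 ± 0.27 (SE, adjusted p = 0.00646). The summed level of 6 stellate and fibroblast markers had medians of 312 CPM in wild-type controls, 283 in tumour-bearing wild-type livers, 412 in Mdr2-/- controls and 308 in tumour-bearing Mdr2-/- livers. Its part in the collagen result was not tested.

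Genes of recruited macrophages had 13 of 21 members with a negative interaction and 0 with a positive one, at a median of -1.21, and all 13 were control-led. The count was 8 on log2(TPM + 1). With tumours, 13 members had a called rise and 0 a called fall in wild type, beside 16.9% and 11.5% of all genes. In Mdr2-/- the counts were 2 and 3, beside 17.9% and 17.0% of all genes. The summed level of the 21 members, in which abundant ones weigh most, had medians of 371.2 CPM in wild-type controls and 861.1 with tumours. In Mdr2-/- this sum was 908.2 CPM in controls and 2893 with tumours, with no overlap (693.6 to 1435 against 2275 to 4851). Mmp12, macrophage elastase, ran at 0.733 to 3.29 CPM (median 1.8) in wild-type controls and 4.9 to 19.7 CPM (median 11.3) in tumour-bearing wild-type livers, and at 22 to 44.1 CPM (median 31.4) in Mdr2-/- controls and 9.64 to 19.4 CPM (median 13) with tumours. Mdr2-/- controls were above all other libraries and wild-type controls below them. Its interaction was -3.81 ± 0.44 (SE, adjusted p = 2.77e-06), and its tumour effect 2.57 in wild type (adjusted p = 2.44e-06) and -1.24 in Mdr2-/- (adjusted p = 0.00307). Itgax, an integrin of macrophages and dendritic cells, had medians of 1.04, 3.39, 7.17 and 7.28 CPM and -2.10 ± 0.43 (SE, adjusted p = 0.0015). The summed level of 5 recruited macrophage markers ran at 4.32 to 8.27 CPM in wild-type controls, 12.1 to 44.9 in tumour-bearing wild-type livers, 31.1 to 66.2 in Mdr2-/- controls and 41.0 to 63.9 in tumour-bearing Mdr2-/- livers, and all 5 markers were called with a negative interaction. Whether the other genes followed the number of these cells was not tested. Kupffer cell genes had 6 of 13 members with a negative interaction and 0 with a positive one. Vsig4, a complement receptor of resident macrophages, had medians of 33.5, 45.6, 60.7 and 33.5 CPM and -1.21 ± 0.21 (SE, adjusted p = 0.000422), with its highest median in Mdr2-/- controls.

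Chemokines had 8 of 22 members with a negative interaction and 1 with a positive one. Ccl2, which draws monocytes, ran at 0.5 to 1.11 CPM (median 0.693) in wild-type controls, 1.99 to 13.8 CPM (median 4.27) in tumour-bearing wild-type livers, 5.1 to 37.3 CPM (median 10.3) in Mdr2-/- controls and 6.16 to 11.8 CPM (median 10.4) in tumour-bearing Mdr2-/- livers. Wild-type controls were apart and the rest overlapped, with -3.50 ± 0.64 (SE, adjusted p = 0.000654) and a value of -2.91 without Mdr2-/- control replicate 4. Interferon-stimulated genes had 8 of 25 members with a negative interaction and 0 with a positive one. Oasl1, an antiviral gene, had medians of 1.04, 3.59, 12.9 and 5.47 CPM and -3.03 ± 0.38 (SE, adjusted p = 8.05e-06), and Mdr2-/- controls were above every other library, while Ifit3 had 2.21, 8.33, 6.38 and 7.42 CPM and -1.60 ± 0.31 (SE, adjusted p = 0.00115). Of 19 T and NK cell genes 1 was positive (5.26%, beside 11.9% of all genes) and 0 negative, with 4 positive without Mdr2-/- control replicate 2 and 3 by limma voom. Of 15 B and plasma cell genes 1 was positive and 3 negative, and 0 of 8 neutrophil genes were called by edgeR (0 at an unadjusted p under 0.05, and 0 by DESeq2 or limma voom), with 2 members shown here, Csf3r at -0.52 ± 0.30 and S100a9 at 0.18 ± 0.43. The T cell gene, Cd3d, had medians of 0.707, 0.698, 0.471 and 1.41 CPM and 1.41 ± 0.38 (SE, adjusted p = 0.01).

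Epithelial and acute phase genes included some of the largest negative interactions. Slpi, a secreted inhibitor of leukocyte elastase, ran at 4.44 to 6.85 CPM (median 5.63) in wild-type controls and 34.5 to 77.4 CPM (median 58.2) in tumour-bearing wild-type livers, and at 138 to 267 CPM (median 186) in Mdr2-/- controls and 39 to 157 CPM (median 72.5) with tumours. Wild-type controls were below every other library, and Mdr2-/- controls were above all but 1 tumour-bearing liver. The interaction was -4.49 ± 0.36 (SE, adjusted p = 9.39e-09), with a tumour effect of 3.32 in wild type (adjusted p = 2.05e-09) and -1.17 in Mdr2-/- (adjusted p = 0.00112). Sprr1a, a gene of the cornified envelope that is switched on in injured epithelium, had 0.274 to 0.468 CPM (median 0.366), 1.14 to 4.73 CPM (median 2.02), 4.2 to 19.5 CPM (median 16.2) and 1.8 to 9.75 CPM (median 3.5) in the 4 groups in that order, with wild-type controls below all others, and -4.61 ± 0.60 (SE, adjusted p = 1.36e-05). Hp, haptoglobin, which binds free haemoglobin, ran at 569 to 1070 CPM (median 871) in wild-type controls, 1710 to 2670 CPM (median 1880) in tumour-bearing wild-type livers, 3620 to 5230 CPM (median 4860) in Mdr2-/- controls and 1710 to 2770 CPM (median 2290) in tumour-bearing Mdr2-/- livers. Both tumour-bearing groups overlapped with each other and lay between the control groups, with no overlap with either. The interaction was -2.26 ± 0.23 (SE, adjusted p = 8.43e-07). Lcn2, the siderophore-binding lipocalin, had medians of 12, 106, 218 and 358 CPM and -2.91 ± 0.58 (SE, adjusted p = 0.00121), and here the genotype difference was called on both sides, with 4.36 in control livers (adjusted p = 6.46e-08) and 1.45 between the tumour-bearing ones (adjusted p = 0.0206). Across 22 acute phase genes 6 interactions were negative (27.3%) and 3 positive (13.6%), beside 13.4% and 11.9% of all genes.

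Cholangiocyte genes kept a genotype difference with tumours. Of 24 tested, 6 were called with a negative and 2 with a positive interaction. The median genotype difference over members was 1.91 in controls and 1.30 in tumour-bearing livers, and the median tumour effect 1.90 in wild type and 1.10 in Mdr2-/-. The summed level, in which abundant members weigh most, went the other way. Its medians were 400.9 CPM in wild-type controls and 960.1 with tumours, against 526.4 in Mdr2-/- controls and 2850 with tumours. Cldn4, a tight junction protein, had medians of 0.1, 0.833, 3.85 and 3.2 CPM in wild-type control, wild-type tumour-bearing, Mdr2-/- control and Mdr2-/- tumour-bearing livers and -3.33 ± 0.68 (SE, adjusted p = 0.00159). Its level in wild-type controls was very low, and its interaction ran from -3.81 to -1.17 over the 38 alternatives, called in each. Elf3, an epithelial transcription factor, had 1.04, 6.4, 16.5 and 12.5 CPM and -3.14 ± 0.50 (SE, adjusted p = 0.000162). Other large negative interactions were Tinag, a basement membrane antigen first known from kidney tubules, with 0.342, 7.3, 9.6 and 8.04 CPM and -4.84 ± 0.34 (SE, adjusted p = 7.85e-10), Ly6d, a surface marker, with 6.06, 137, 125 and 136 CPM and -3.98 ± 0.42 (SE, adjusted p = 1.29e-06), and Smpd3, a neutral sphingomyelinase, with 1.62, 18.3, 42.4 and 30.7 CPM and -4.30 ± 0.43 (SE, adjusted p = 6.55e-07). For these 3, wild-type controls were below every other library and the other groups overlapped. Anxa5, an annexin, with 24.9, 223, 211 and 345 CPM and -2.53 ± 0.31 (SE, adjusted p = 7.43e-06), and Nrg1, a ligand of ErbB receptors, with 1.95, 19.1, 17.8 and 15.6 CPM and -3.48 ± 0.26 (SE, adjusted p = 2.31e-09), were of the same form. Erbb4, a receptor for Nrg1, was not: its medians were 1.55, 5.86, 0.693 and 8.61 CPM, lowest in Mdr2-/- controls, and its interaction was 1.77 ± 0.33 (SE, adjusted p = 0.00081). Slc51b, a subunit of the bile acid exporter of ducts and gut that hepatocytes raise in cholestasis, ran at 0.855 to 1.88 CPM (median 1.34) in wild-type controls, 0.863 to 2.82 CPM (median 2.01) in tumour-bearing wild-type livers, 6.53 to 30.5 CPM (median 14.4) in Mdr2-/- controls and 2.05 to 7.92 CPM (median 3.41) in tumour-bearing Mdr2-/- livers. Its tumour effect was 0.52 in wild type (adjusted p = 0.322) and -2.03 in Mdr2-/- (adjusted p = 0.000191), and its interaction -2.55 ± 0.51 (SE, adjusted p = 0.00129).

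**Figure D4:**
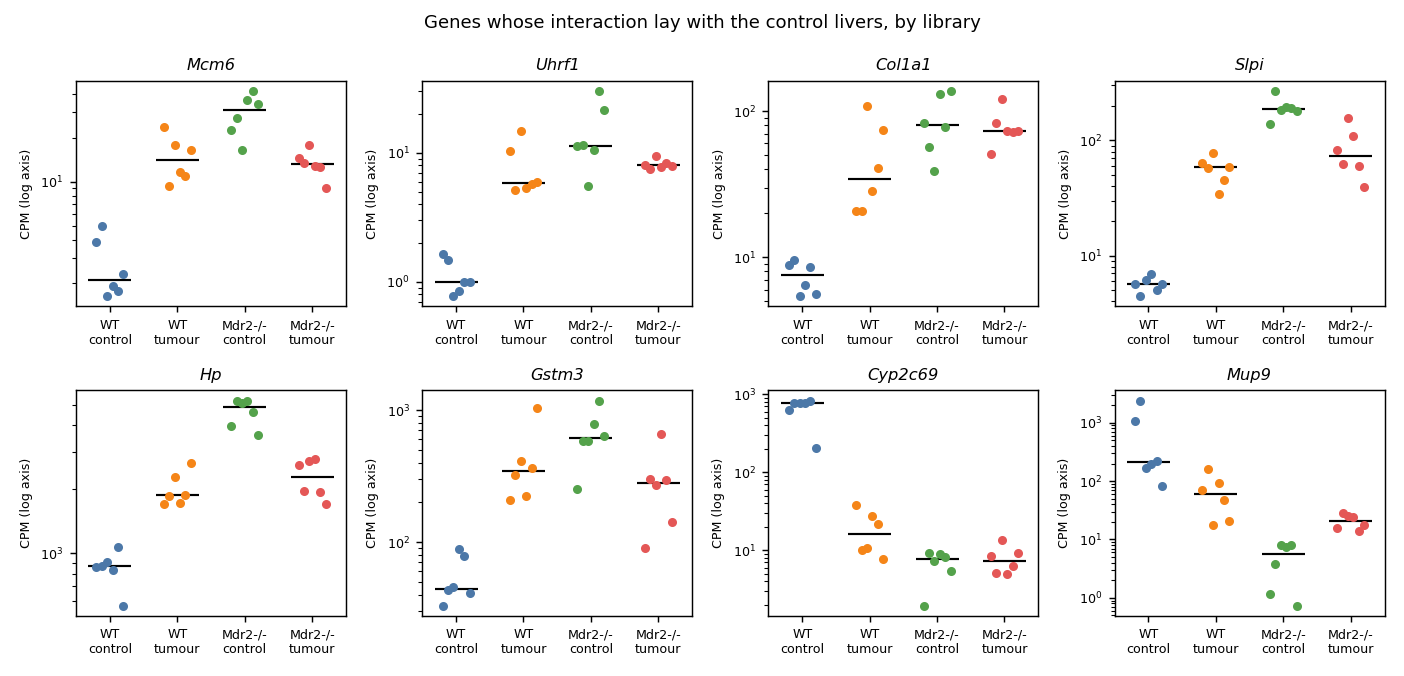
CPM on a log axis for 8 control-led genes, 1 point per library and a line at the median of each group of 6. Wild-type controls are the lowest group for Mcm6, Uhrf1, Col1a1, Slpi, Hp and Gstm3 and the highest for Cyp2c69 and Mup9, and the tumour-bearing groups overlap in all 8.

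Glutathione transferases, which couple glutathione to reactive compounds, had 9 of 23 members with a negative interaction and 0 with a positive one, at a median of -0.69. Near-identical paralogs in this family can share reads, so single members are uncertain. Gstm3 ran at 33 to 88.9 CPM (median 44.3) in wild-type controls and 209 to 1040 CPM (median 343) in tumour-bearing wild-type livers, and at 252 to 1180 CPM (median 609) in Mdr2-/- controls and 90 to 661 CPM (median 282) with tumours. Wild-type controls were below every other library, and the others overlapped. The interaction was -4.14 ± 0.61 (SE, adjusted p = 6.51e-05) and the tumour effect 2.96 in wild type (adjusted p = 2.97e-05) and -1.19 in Mdr2-/- (adjusted p = 0.0326). Gstm1 had 355 to 1140 CPM (median 517), 915 to 4540 CPM (median 1380), 1610 to 2550 CPM (median 2050) and 403 to 1400 CPM (median 963) in the same order, an interaction of -2.72 ± 0.49 (SE, adjusted p = 0.00057), and was mixed. Its Mdr2-/- controls were above both wild-type controls and tumour-bearing Mdr2-/- livers. Among 21 genes of redox defence 5 were negative and 0 positive, or 8 negative on either TPM scale. Srxn1, sulfiredoxin, a target of NRF2, had medians of 30.3, 73.5, 99.5 and 48.1 CPM and -2.20 ± 0.32 (SE, adjusted p = 5.54e-05), and Hmox1, haem oxygenase, 33.5, 36.2, 53.9 and 29.6 CPM and -1.17 ± 0.24 (SE, adjusted p = 0.00152). The core antioxidant element TGACNNNGC, bound by NRF2, was found in 4 of 29 transferase promoters (13.8%), beside 12.4% of all promoters.

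The largest positive interactions among named genes were those of sex-biased liver genes. Cyp3a41a and Cyp3a41b, Cyp2c40 and Cyp2c69 and the Mup genes are near-identical pairs or clusters whose single values are uncertain. The lowest level of Xist in any library was 533 CPM. Of 16 female-biased genes, which the growth hormone pattern of the female raises, 7 were positive and 2 negative, at a median of 1.04 and genotype differences of -2.25 in controls and -0.84 in tumour-bearing livers. Cyp2c69, a steroid-metabolising P450, ran at 205 to 830 CPM (median 770) in wild-type controls and 7.8 to 38 CPM (median 16.2) in tumour-bearing wild-type livers, and at 1.95 to 9.1 CPM (median 7.78) and 4.93 to 13.4 CPM (median 7.34) in the Mdr2-/- groups. Wild-type controls were above every other library, and the other 3 groups overlapped. The interaction was 5.31 ± 0.57 (SE, adjusted p = 1.29e-06), the tumour effect -5.11 in wild type (adjusted p = 7.98e-09) and 0.20 in Mdr2-/- (adjusted p = 0.703). Cyp3a44 had 45.5 to 1270 CPM (median 298), 3.21 to 55 CPM (median 7.45), 2.97 to 7.8 CPM (median 5.11) and 7.65 to 28.7 CPM (median 11.4) in the 4 groups in that order and the largest interaction of the named genes, 6.46 ± 1.02 (SE, adjusted p = 0.0002). Wild-type controls overlapped with 1 tumour-bearing wild-type liver and were above all Mdr2-/- libraries. The interaction ran from 5.93 without wild-type control replicate 2 to 7.25 without tumour-bearing wild-type replicate 1.

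Major urinary proteins, pheromone carriers made by the liver, had 8 of 11 tested members with a positive and 1 with a negative interaction, at a median of 2.83. The median of their summed level, in which abundant members weigh most, did not fall with tumours in wild type. It was 4164 CPM in wild-type controls and 4936 with tumours, against 1917 in Mdr2-/- controls and 3528 with tumours, and the 4 groups overlapped. Mup9 ran at 83.6 to 2390 CPM (median 210) in wild-type controls and 18 to 159 CPM (median 59.5) in tumour-bearing wild-type livers, and at 0.738 to 8.11 CPM (median 5.61) in Mdr2-/- controls and 13.9 to 27.9 CPM (median 20.9) with tumours. Mdr2-/- controls were below every other library, and wild-type controls overlapped with tumour-bearing wild-type livers. The interaction was 5.44 ± 1.06 (SE, adjusted p = 0.00129), or 4.44 without wild-type control replicate 2, and the tumour effect -3.35 in wild type (adjusted p = 0.00222) and 2.09 in Mdr2-/- (adjusted p = 0.0335). Mup20, the darcin of male urine, went the other way, with medians of 64.3, 1100, 968 and 1990 CPM and -3.93 ± 0.69 (SE, adjusted p = 0.000407), which was -3.33 without Mdr2-/- control replicate 3. Male-biased genes were split, with 3 of 15 positive and 5 negative. Cyp7b1, an oxysterol hydroxylase, had medians of 87.3, 21.8, 17.9 and 18.9 CPM and 2.35 ± 0.33 (SE, adjusted p = 2.87e-05), and Cyp4a12a, which makes 20-HETE, 1.79, 128, 10.4 and 51.5 CPM and -4.40 ± 0.96 (SE, adjusted p = 0.00293), or -3.06 without Mdr2-/- control replicate 3. Other positive control-led genes came from several functions. Lgr5, a pericentral Wnt target, had medians of 8.54, 3.58, 2.56 and 3.39 CPM in wild-type control, wild-type tumour-bearing, Mdr2-/- control and Mdr2-/- tumour-bearing livers and 1.55 ± 0.31 (SE, adjusted p = 0.00119). Peg3, an imprinted gene, had 54.3, 28.1, 12.8 and 22.3 CPM and 1.87 ± 0.27 (SE, adjusted p = 4.54e-05). The hepatocyte uptake carriers Slco1a1 and Slco1b2 had 2370, 1400, 746 and 1080 CPM with 1.56 ± 0.30 (SE, adjusted p = 0.00103), and 3740, 1950, 1400 and 1440 CPM with 1.19 ± 0.27 (SE, adjusted p = 0.00367). In each of these 4, wild-type controls had the highest median and the genotype difference in tumour-bearing livers was not called.

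Only 186 called genes were tumour-led, 118 with a positive and 68 with a negative interaction. Among the 118, the median genotype difference was -0.13 in controls and 1.21 in tumour-bearing livers. The genotype difference was called in tumour-bearing livers for 117 and in controls for 4. Both follow from the limit on the share by which these genes were picked, and are no separate result. The tumour effect was called in Mdr2-/- for 105 and in wild type for 19. Lrrn1, a leucine-rich repeat membrane protein of neural tissue, ran at 1.03 to 1.42 CPM (median 1.19) in wild-type controls and 0.606 to 1.83 CPM (median 1.11) in tumour-bearing wild-type livers, and at 0.457 to 1.7 CPM (median 0.674) in Mdr2-/- controls and 3.94 to 10.7 CPM (median 8.7) with tumours. Tumour-bearing Mdr2-/- livers were above every other library and the other 3 groups overlapped. The interaction was 3.36 ± 0.43 (SE, adjusted p = 1.11e-05), with genotype differences of -0.55 in control livers (adjusted p = 0.144) and 2.80 between the tumour-bearing ones (adjusted p = 1.7e-06). Ugt8a, the synthase of galactosylceramide, had 2.09 to 3.24 CPM (median 2.61), 2.68 to 12.5 CPM (median 4.2), 0.668 to 3.37 CPM (median 1.32) and 15 to 61.5 CPM (median 29.9) in the same order, with the last group again above all others. Its interaction was 3.28 ± 0.54 (SE, adjusted p = 0.000225), and the tumour effect 1.16 in wild type (adjusted p = 0.0242) and 4.44 in Mdr2-/- (adjusted p = 1.51e-07).

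Rab27b, a GTPase of secretory vesicles, ran at 1.44 to 4.44 CPM (median 2.85) in wild-type controls and 1.85 to 8.02 CPM (median 3.51) in tumour-bearing wild-type livers, and at 1.65 to 4.98 CPM (median 2.67) and 12.4 to 31.3 CPM (median 19.7) in the Mdr2-/- groups. The last did not overlap with the others, and the interaction was 2.36 ± 0.45 (SE, adjusted p = 0.000964). Scd2, a fatty acid desaturase that adult liver makes little of, ran at 19 to 30.2 CPM (median 25.7), 16.9 to 53.3 CPM (median 31.9), 18.5 to 24.6 CPM (median 23.1) and 42.5 to 141 CPM (median 106) in the 4 groups in that order. Tumour-bearing livers of the 2 genotypes overlapped through 1 Mdr2-/- library, and the interaction was 1.68 ± 0.35 (SE, adjusted p = 0.00161). Afp, alpha-fetoprotein of the fetal liver, had the largest tumour-led value, 4.30 ± 1.15 (SE, adjusted p = 0.011), but its size and its tumour-led placing rested on 1 library. It ran at 11.2 to 15 CPM (median 14.4) in wild-type controls, 8.92 to 12.3 CPM (median 10.5) in tumour-bearing wild-type livers, 5.14 to 8.96 CPM (median 6.96) in Mdr2-/- controls and 8.25 to 564 CPM (median 12.9) in tumour-bearing Mdr2-/- livers, and the value was 1.25 without tumour-bearing Mdr2-/- replicate 3, where it was still called. Its level in Mdr2-/- controls was below that in all wild-type controls. Afp was not called by DESeq2, by limma voom, on either TPM scale or with the title number range as a covariate.

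Kidney-type genes lay between. Of 14 such transporters and receptors 6 could be tested, and 3 had a positive interaction, all of them mixed. Lrp2, megalin, the endocytic receptor of kidney tubules, ran at 0.227 to 0.947 CPM (median 0.545) in wild-type controls and 0.563 to 6.13 CPM (median 2.03) in tumour-bearing wild-type livers, and at 0.1 to 0.468 CPM (median 0.165) in Mdr2-/- controls and 3.65 to 16.5 CPM (median 8.92) with tumours. Its tumour effect was a called rise in both genotypes, 2.18 in wild type (adjusted p = 0.00312) and 5.40 in Mdr2-/- (adjusted p = 1.23e-06), and the interaction was 3.21 ± 0.78 (SE, adjusted p = 0.0053). Tumour-bearing livers of the genotypes overlapped. Slc34a2, a phosphate carrier of secretory epithelia, had medians of 4.7, 5.79, 2.34 and 19 CPM in wild-type control, wild-type tumour-bearing, Mdr2-/- control and Mdr2-/- tumour-bearing livers and 2.50 ± 0.56 (SE, adjusted p = 0.003). S100b, a calcium-binding protein of glia and other cells, had 1.53 to 3.83 CPM (median 2.51), 1.08 to 2.75 CPM (median 1.92), 0.751 to 1.44 CPM (median 0.854) and 4.16 to 13.8 CPM (median 6.24) in that order, with tumour-bearing Mdr2-/- livers above all other libraries and Mdr2-/- controls below the wild-type controls. Its interaction was 3.30 ± 0.42 (SE, adjusted p = 1.11e-05), and its genotype difference was called in opposite directions, -1.40 in control livers (adjusted p = 0.000634) and 1.90 between the tumour-bearing ones (adjusted p = 0.000152). Spock3, a proteoglycan, had medians of 0.949, 0.67, 0.345 and 5.54 CPM and 3.41 ± 0.80 (SE, adjusted p = 0.00418), or 2.85 without tumour-bearing Mdr2-/- replicate 6. Beside these genes, the summed cholangiocyte markers ran at 17.9 to 78.7 CPM in tumour-bearing wild-type livers and 55.3 to 186 in tumour-bearing Mdr2-/- livers, with no marker of the 6 called for the interaction. Their part in these results was not tested.

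**Figure D5:**
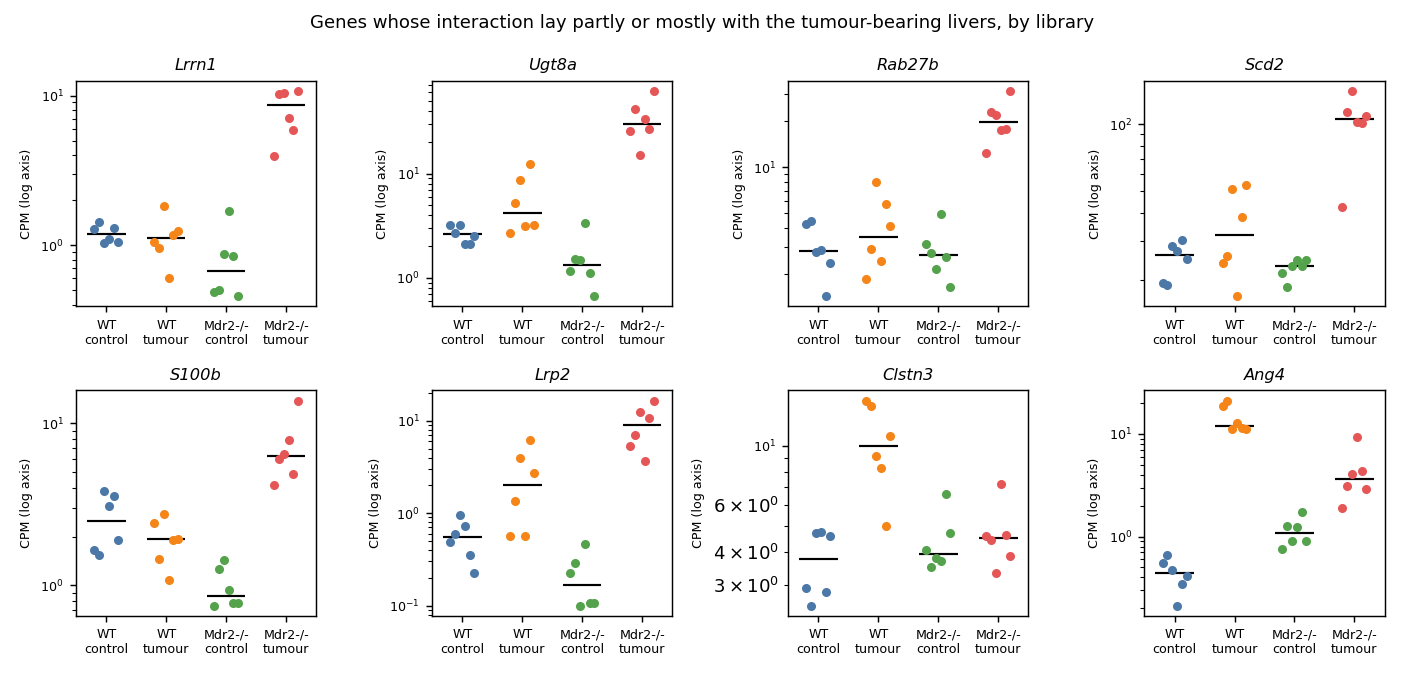
CPM on a log axis for 8 tumour-led or mixed genes, 1 point per library and a line at the median of each group of 6. Tumour-bearing Mdr2-/- livers are the highest group for Lrrn1, Ugt8a, Rab27b, Scd2, S100b and Lrp2, and tumour-bearing wild-type livers for Clstn3 and Ang4.

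A smaller group was highest in tumour-bearing wild-type livers. Clstn3, a calsyntenin whose adipose form acts at lipid droplets, ran at 2.52 to 4.77 CPM (median 3.76) in wild-type controls and 5 to 14.7 CPM (median 9.99) in tumour-bearing wild-type livers, and at 3.5 to 6.57 CPM (median 3.93) and 3.34 to 7.18 CPM (median 4.52) in the Mdr2-/- groups. It was tumour-led, with -1.37 ± 0.34 (SE, adjusted p = 0.00563) and a tumour effect of 1.47 in wild type (adjusted p = 7.65e-05) and 0.09 in Mdr2-/- (adjusted p = 0.788). Ang4, an antimicrobial angiogenin, ran at 0.213 to 0.657 CPM (median 0.441), 11.2 to 21.1 CPM (median 12.1), 0.751 to 1.72 CPM (median 1.07) and 1.92 to 9.29 CPM (median 3.63) in the 4 groups in that order, with tumour-bearing wild-type livers above every other library. The interaction was -3.12 ± 0.46 (SE, adjusted p = 6.14e-05), and the tumour effect 5.04 in wild type (adjusted p = 4.88e-10) and 1.92 in Mdr2-/- (adjusted p = 9.16e-05). Its paralog Ang5 had medians of 0.477, 42.5, 4.14 and 13.6 CPM and -4.62 ± 0.63 (SE, adjusted p = 2.51e-05), and reads can be shared between the 2. Sdcbp2, a syntenin, had medians of 0.2, 14.9, 0.48 and 4.48 CPM and -2.77 ± 0.59 (SE, adjusted p = 0.00196). Pparg, the lipid storage regulator, had 5.85, 14.3, 12.1 and 9.75 CPM and -1.92 ± 0.36 (SE, adjusted p = 0.000715), and Elovl6, a fatty acid elongase, 87.4, 227, 148 and 145 CPM and -1.33 ± 0.30 (SE, adjusted p = 0.00335). Lipid droplet proteins had 6 of 13 members with a negative interaction and 0 with a positive one. That count fell to 3 without tumour-bearing wild-type replicate 6 or without tumour-bearing Mdr2-/- replicate 6, to 2 without the 2 libraries named above that stood apart from their groups, and to 0 with the share of nuclear non-coding RNA as a covariate.

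Several liver functions showed few interactions. Of 24 nuclear-encoded respiratory chain genes 0 were called by edgeR, 4 had an unadjusted p under 0.05, 0 were called by DESeq2 or limma voom and 4 on either TPM scale. Of 30 cytosolic ribosomal protein genes 1 was called, but 5 without wild-type control replicate 5 or with the title number range as a covariate, and 4 by DESeq2. For 20 secreted hepatocyte proteins 1 was positive and 1 negative, although the median tumour effect was -0.68 in wild type and -0.72 in Mdr2-/-. The interaction count was 1 of 16 for bile acid synthesis, 1 of 17 for the Notch pathway and 2 of 22 for the AKT and PI3K pathway, each beside 25.3% of all genes. Without wild-type control replicate 5 it was 2 for bile acid synthesis and 4 for the AKT and PI3K pathway. The 1 call of the Notch pathway was lost in 23 of 38 alternatives, 13 of them with 1 library left out. YAP and TEAD targets, with 4 of 20, were near the share of all genes. The test does not show that these genes responded alike in both genotypes. Trf, transferrin, was an exception among secreted proteins, with 3410 to 5910 CPM (median 4770) in wild-type controls, 4030 to 6180 CPM (median 4550) in tumour-bearing wild-type livers, 7270 to 10300 CPM (median 8240) in Mdr2-/- controls and 3250 to 5770 CPM (median 4970) in tumour-bearing Mdr2-/- livers. Mdr2-/- controls were above every other library, the tumour effect was 0.03 in wild type (adjusted p = 0.907) and -0.78 in Mdr2-/- (adjusted p = 0.000747), and the interaction -0.81 ± 0.22 (SE, adjusted p = 0.00957). Sdc1, a syndecan of hepatocytes and plasma cells, had medians of 195, 150, 381 and 151 CPM and -1.02 ± 0.25 (SE, adjusted p = 0.00509) in the same form, and so did Steap3, an iron reductase, with 22.4, 21, 67.2 and 30.7 CPM and -1.05 ± 0.28 (SE, adjusted p = 0.0105). Of 16 iron genes 5 were negative and 0 positive.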

How the data were processed

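Per the labels' protocols, a kit sold for bacteria removed ribosomal RNA from the liver RNA, and reads were paired. The authors deposited raw counts per gene, and TPM values, which are scaled for gene length and library total. The submitters' processing notes name build mm39 and DESeq2 without a version. The aligner, counter, annotation and strand setting are not stated in those notes, so a gene and its antisense partner cannot be told apart.

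Groups come from the treatment labels. The counts went through edgeR 4.0.16 (R 4.3.3), where genes were filtered with filterByExpr (groups given, min.count of 10) and scaled by TMM before a robust quasi-likelihood fit of 1 mean per group (glmQLFTest, 2-sided) and Benjamini-Hochberg adjustment over 17216 genes. Genes without a symbol, 174 of 49315, held 0.0111 to 0.0178% of counts. All 60 replicate pairs differed beyond sampling noise, and the common biological coefficient of variation was 0.272. In simulated data of 16442 genes, with wild-type control levels in all groups, the fit recovered 50 of 100 genes with a 2-fold and 95 of 100 with a 4-fold interaction. There were 7 false calls, and the changed genes had an expected count of 50 or more.

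Members, 59 gene lists and all alternatives were chosen with earlier results of these data known. The lists hold 1072 entries and 1018 distinct genes, so some genes are counted in more than 1 list. Genes were named by a rule: Abcb4, Akt1 and Yap1; the 10 largest interactions each way (called, at least 5 CPM in the highest group, no predicted genes); the 4 largest of each placing and direction; the 5 largest each way with opposite tumour effects; and, from each list, the 3 called members that changed most plus the largest the other way, or the 2 of highest CPM where none was called. Not all 184 are printed. The examples were picked from these after their values were seen. DESeq2 1.42.0, limma 3.58.1 and Python 3.11.15 served for the alternatives and tables.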

Additional observations from a re-analysis of the deposited data

Results flagged for a closer look

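The tumour effect differed between the genotypes, by the test of the difference itself, for 4355 genes. The largest positive log2 interactions among the named genes were 6.46 for Cyp3a44, 6.28 for Cyp3a16, 6.14 for Cyp3a41b, 5.95 for Cyp3a41a, 5.82 for Cyp3a63-ps, 5.51 for Mup16, 5.44 for Mup9, 5.31 for Cyp2c69, 4.75 for Mup7 and 4.72 for Mup19. The largest negative ones were -4.84 for Tinag, -4.62 for Ang5, -4.61 for Sprr1a, -4.49 for Slpi, -4.40 for Cyp4a12a, -4.30 for Smpd3, -4.22 for Trav4-1, -4.14 for Gstm3, -3.99 for Wisp2 and -3.98 for Ly6d.

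A library far from the others of its group was found in 23 of 192 groups of 6 examined on log2(CPM + 0.5) for the genes named by size or placing (12.0%, where chance gives about 1 in 20). The library labelled tumour-bearing Mdr2-/- replicate 1 stood apart for Abcb4 (59.3 CPM), Smpd3 (10.1), Usp43 (2.91), Pak6 (7.11) and Cyp2b13 (76.8). Other tumour-bearing Mdr2-/- libraries did so for Afp (564 CPM, replicate 3), Mup19 (1.35, replicate 2) and Spock3 (21.6, replicate 6). In Mdr2-/- controls, replicate 6 was apart for Cyp3a16 (22.5 CPM), Cyp3a41b (2.71), Cyp3a41a (41.8) and Cyp3a63-ps (0.878), and replicate 1 for Cyp2c69 (1.95), Cyp2c40 (8.52) and Sprr1a (4.20). In wild-type controls, replicate 6 was apart for Cyp3a41a (18.8 CPM), Cyp2c69 (205), Cyp2c40 (256) and Afp (11.2), and replicate 1 for Usp43 (0.672) and Cdh16 (0.855). Tumour-bearing wild-type replicate 6 was apart for Pcsk6 (285 CPM) and Gstm1 (4540).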

How the results depend on the processing

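The interaction was refitted under 38 alternatives, chosen with earlier results of these data known. The counts of called, positive and negative interactions stayed within 1.5 times those reported except with the share of nuclear non-coding RNA as a covariate, where 2682 genes were called (1117 positive), and for positive interactions on log2(TPM + 1) (1320), on log2(TPM + 0.1) (1314) and without the 2 libraries that stood apart (1347). Leaving out 1 library called 3457 (without wild-type control replicate 6) to 5437 genes (without wild-type control replicate 5). Of the genes called in each alternative, those shared with the reported calls kept their direction. Control-led genes were 60.7 to 75.6% and tumour-led genes 2.68 to 8.28%. The tumour-led count, 186, ran from 96 (without tumour-bearing Mdr2-/- replicate 6) to 282 (on log2(TPM + 1)), with 111 without a filter. The mixed count, 1157, fell as low as 607 without the 2 libraries, and the control-led count, 3012, as low as 1928 with the covariate. Of 175 called named genes, 120 kept call and direction throughout, 55 lost the call in at least 1 alternative and 0 reversed. The causes were not tested. No paired analysis was possible because the labels give no replicate numbers, and those used here follow the order of accession. In simulated data, interactions of 2-fold were recovered for 50 of 100 genes with an expected count of 50 or more, so smaller ones may be missed. Few genes were changed there, against 25.3% called in the data, which makes the adjustment stricter. The simulated share is therefore not the share recovered here.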
